A study of Mus musculus with 6 samples.

Results

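The TGF-beta, activin and BMP pathway was examined in epididymal white adipose tissue (eWAT) of mice with cancer-associated cachexia (CAC) and of control mice (CONT). It was represented by 44 genes, chosen by name, and each matched exactly 1 of the 55039 genes in the deposited table. They were 3 TGF-beta ligands, 4 latent TGF-beta binding proteins, 5 TGF-beta receptors, 3 activin and inhibin subunits, 4 growth and differentiation factors (GDFs), 4 activin and myostatin receptors, 3 genes of the follistatin family, 5 BMP ligands, the protease gene Bmp1, 4 BMP receptors, 7 SMADs and the target gene Ctgf. All 6 libraries came from male C57BL/6 mice that were 6 to 7 weeks old when they were assigned to the groups. CAC mice carried Lewis lung carcinoma (LLC) cells, a mouse lung tumor line, injected under the skin of the lower back near the ilium. CONT mice received phosphate-buffered saline (PBS) without cells, and both groups were taken 28 days after injection. Each group had 3 mice with 1 poly(A)-selected mRNA library per mouse, so a single transplanted tumor line at a single time stands for cachexia here.

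Ligands of this superfamily are secreted as dimers, and TGF-beta is held latent in the matrix by binding proteins until it is released. An active ligand joins a type II receptor to a type I receptor, and the type I receptor phosphorylates receptor SMADs, Smad2 and Smad3 for TGF-beta and activin or Smad1 and Smad5 for BMPs, which enter the nucleus with Smad4. In adipose tissue TGF-beta and activin are known for holding progenitors back from becoming adipocytes and for driving matrix deposition, while BMPs favor commitment to the adipocyte lineage.

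Promoter sequence is shown for 2 genes that were lower in CAC (Tgfb1 and Gdf10) and 2 that were higher (Tgfbr2 and Smad5), chosen because the groups did not overlap and the window ends next to the start of the gene in the deposited table. Each run is the 250 bases before the RefSeq start on GRCm38.p6, read 5′ to 3′ on the strand of the gene. Capitals mark CAGAC, the SMAD box bound by Smad3 and Smad4, and GGGCGG, the GC box bound by Sp1, on either strand.
Tgfb1, chr7:25686752-25687001, plus strand: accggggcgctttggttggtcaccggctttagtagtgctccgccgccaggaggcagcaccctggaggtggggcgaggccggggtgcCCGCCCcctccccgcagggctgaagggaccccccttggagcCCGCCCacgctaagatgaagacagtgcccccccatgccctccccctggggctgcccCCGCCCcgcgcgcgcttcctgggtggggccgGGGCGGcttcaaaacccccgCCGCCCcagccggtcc
Gdf10, chr14:33923337-33923586, plus strand: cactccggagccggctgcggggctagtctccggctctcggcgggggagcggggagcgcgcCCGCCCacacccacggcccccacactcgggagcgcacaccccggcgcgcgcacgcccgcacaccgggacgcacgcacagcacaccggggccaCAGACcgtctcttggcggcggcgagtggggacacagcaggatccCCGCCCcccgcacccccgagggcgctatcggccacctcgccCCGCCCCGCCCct
Tgfbr2, chr9:116175364-116175613, minus strand: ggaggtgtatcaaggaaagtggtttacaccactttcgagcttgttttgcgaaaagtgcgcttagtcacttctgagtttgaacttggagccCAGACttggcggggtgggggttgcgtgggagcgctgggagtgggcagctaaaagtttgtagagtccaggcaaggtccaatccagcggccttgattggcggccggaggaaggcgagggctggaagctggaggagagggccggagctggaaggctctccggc
Smad5, chr13:56702760-56703009, plus strand: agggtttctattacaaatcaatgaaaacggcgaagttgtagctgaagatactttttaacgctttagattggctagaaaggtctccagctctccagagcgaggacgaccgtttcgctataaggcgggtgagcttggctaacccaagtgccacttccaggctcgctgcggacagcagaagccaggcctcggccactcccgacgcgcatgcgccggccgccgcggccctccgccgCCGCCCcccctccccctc
Tgfb1 held 5 GC boxes and 0 SMAD boxes, and Gdf10 held 4 GC boxes, some of them sharing letters, and 1 SMAD box. Tgfbr2 held 1 SMAD box and 0 GC boxes, and Smad5 held 1 GC box and 0 SMAD boxes. Windows were at hand for 32 of the 44 genes. CAGAC lay in 15 of these 32 windows (46.9%) and in 42.2% of all 32851 windows of that length. GGGCGG lay in 22 (68.8%) against 32.7% of all windows, and GGCGCC, an element of BMP-responsive promoters, in 3 (9.4%) against 9.6%. The median GC content was 65.6% in the 32 windows and 52.4% in all windows. Windows were not found for Acvrl1, Smad2, Bmp2, Bmp7, Tgfb3, Bmp3, Ctgf, Bmp1, Fst, Smad7, Smad4 and Tgfbr3.

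CONT replicate 1 stood apart from the other libraries. Mitochondrial genes took 30.2% of its counts against 3.89% to 5.04% elsewhere, and 1 CPM (the unit of normalised read counts, on the TMM-adjusted library size) stood for 11.2 reads in it against 22.1 to 26.5 reads in the others. Total counts ran from 15713794 in that library to 25926425 in CAC replicate 3, and the 44 genes took 27048 to 84468 reads per library. Pathway genes that lost an unadjusted p under 0.05 without this library are therefore named beside their values. The adipocyte markers fitted the labelled tissue: 12 of 12 were tested, their summed level was 33110 to 76540 CPM in CONT and 42690 to 61540 CPM in CAC, and 1 was higher and 0 were lower at p under 0.05. The top of the CONT range was replicate 1, and the other CONT libraries, at 33110 and 37080 CPM, lay below each CAC library, with 2 markers higher and 0 lower once replicate 1 was left out. Leptin (Lep) was the exception within that list, at 697, 409 and 414 CPM in CONT and at 512, 3.996 and 0.415 CPM in CAC. In bulk tissue, fewer cells of a type and less RNA per cell cannot be told apart.

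Of the 44 genes, 43 passed the filter on low counts and were tested with edgeR's quasi-likelihood test over 17296 genes. None reached an adjusted p under 0.05 (smallest 0.242), nor did any of the 17296 genes (0% called, smallest adjusted p 0.127), although 2294 genes (13.3%) had an unadjusted p under 0.05. At that unadjusted level 3 of the 43 were higher in CAC (6.98%, against 6.31% of all genes) and 4 were lower (9.3%, against 6.95%). Groups did not overlap for 6 genes that lay higher (14%, against 11.8%) and 6 that lay lower (14%, against 10.7%). These shares are near the background, so the counts by themselves set the pathway apart in neither direction. Log2 fold changes of CAC over CONT were positive for 21 and negative for 22 genes with a median of -0.02, beside -0.06 over all genes tested. DESeq2 called 965 of 17160 genes at an adjusted p under 0.05 (5.62%), and Tgfb1 was the 1 pathway gene among them. The voom test with sample quality weights called 956 genes (5.53%), with Tgfb1, Fstl1 and Bmp1 among them, each lower in CAC.

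The genes were also counted by where their proteins act, beside 11.8% of all genes tested that lay above and 10.7% that lay below without overlap. Of 23 tested secreted factors, 6 were positive and 17 negative, their median log2 fold change was -0.34, and 0 lay above and 6 below the CONT range without overlap. Of 13 receptors, 10 were positive and 3 negative, with a median of 0.35, and 4 lay above and 0 below. Of 7 SMADs, 5 were positive and 2 negative, with a median of 0.27, and 2 lay above and 0 below. The median transcript GC content was 52.7% for the secreted factors, 48.6% for the receptors and 51.5% for the SMADs. Without CONT replicate 1 the median was -0.59 for the secreted factors, 0.20 for the receptors and 0.31 for the SMADs. With offsets for GC content and length 11 secreted factors were positive and 12 negative, and the medians were -0.16, 0.29 and 0.32. No test of this split was made.

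**Figure D1:**
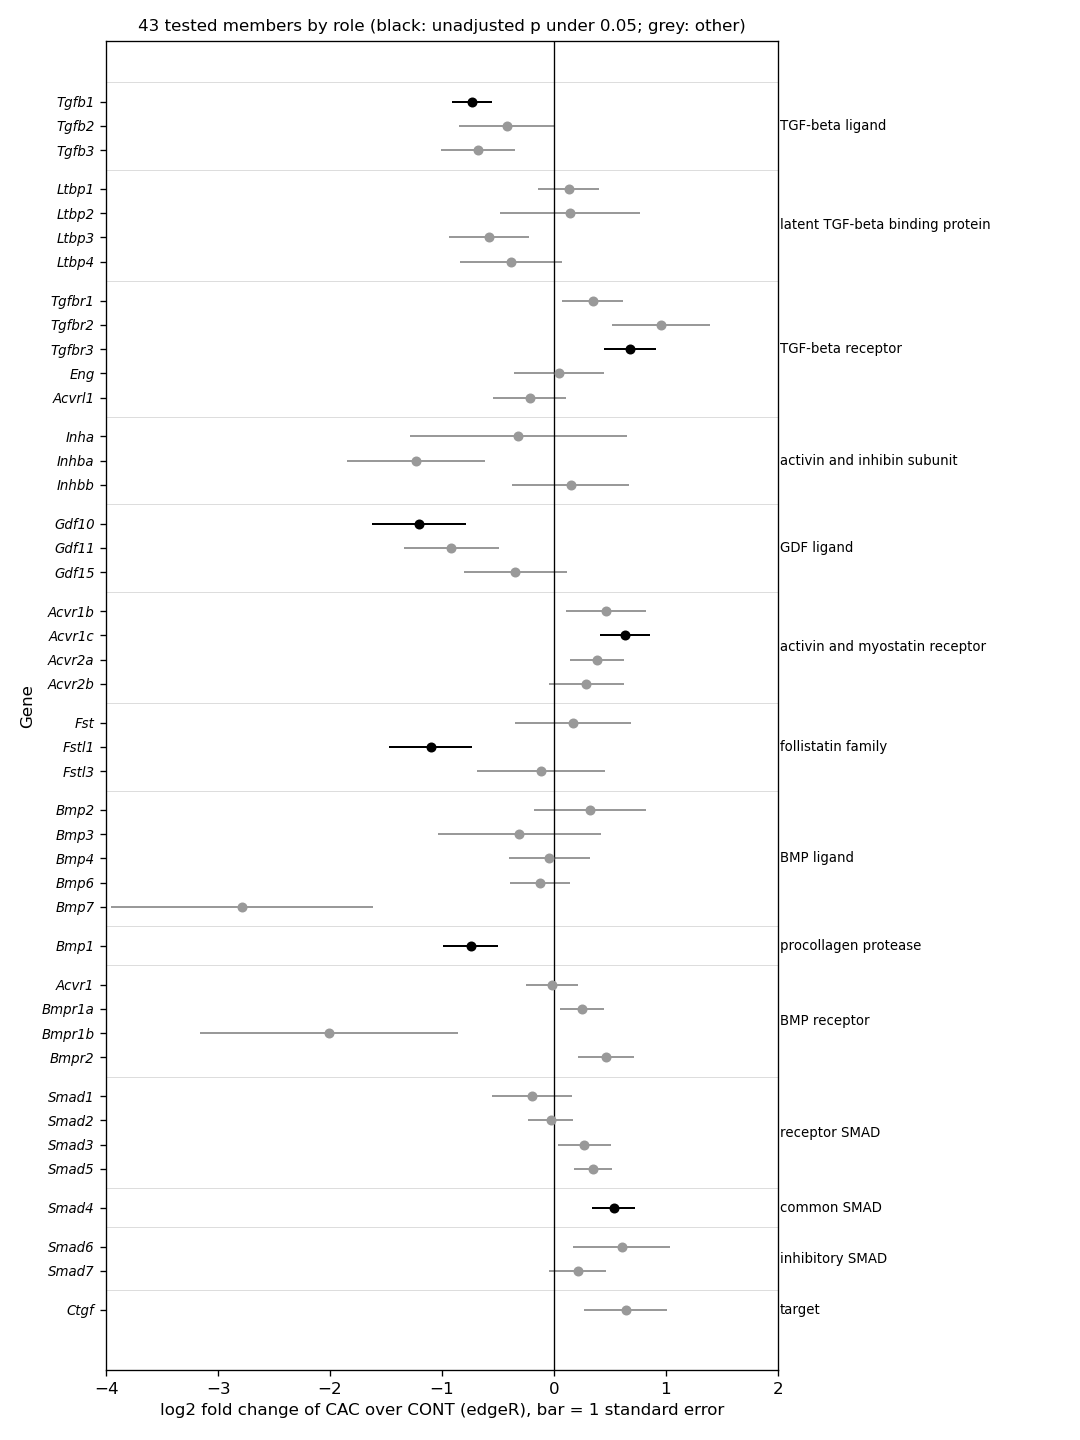
Log2 fold change of CAC over CONT (horizontal axis) for the 43 tested genes by role, with bars of 1 standard error from edgeR; black points have an unadjusted p under 0.05. The 3 TGF-beta ligands lie left of 0 and the 4 activin and myostatin receptors right of 0, and Bmp7 and Bmpr1b have the widest bars.

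Mean levels of the 3 TGF-beta ligands were lower in CAC, without overlap for Tgfb1 and Tgfb3. Tgfb1 (chromosome 7, 25687002 to 25705077, plus strand), the main ligand of immune and stromal cells, stood at 78.3, 61.5 and 77.4 CPM in CONT replicates 1 to 3 and at 46.1, 38.9 and 45.8 CPM in CAC replicates 1 to 3, the order used throughout. The lowest CONT library was above the highest CAC library. The level was 1.66-fold lower in CAC (log2 fold change -0.73 ± 0.18 SE), with an unadjusted p under 0.05, and an adjusted p of 0.242, by edgeR and an adjusted p of 0.031 by DESeq2. Without CONT replicate 1 the log2 fold change was -0.66, with an adjusted p of 0.0407 by DESeq2. With offsets for GC content and length it was -0.57, and the unadjusted p was then over 0.05. Tgfb3 (chromosome 12, 86056745 to 86079041, minus strand) was at 28.3, 26.7 and 24.4 CPM in CONT and at 23.4, 16.6 and 9.78 CPM in CAC (log2 fold change -0.67 ± 0.33 SE, edgeR adjusted p = 0.426). Its groups also did not overlap, by a margin of about 1 CPM. The gene Ttll5 overlaps it on the opposite strand with 103% as many reads, and whether the counting used strand is not given in the sources used here. Tgfb2 overlapped between the groups, with means of 8.47 ± 2.56 CPM in CONT and 6.34 ± 2.89 CPM in CAC (SD, n = 3 each).

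In FPKM, which is scaled by gene length so that genes can be added up, the 3 TGF-beta ligands together came to 20.3, 17.6 and 19.2 in CONT and to 13.9, 11.6 and 10.5 in CAC. Of this sum Tgfb1 made up 60.6% ± 4.6 in CONT and 59.7% ± 9.5 in CAC (SD, n = 3 each; exact permutation p = 0.8, two-sided). Platelet and megakaryocyte markers, whose cells carry stored Tgfb1, lay at a summed 61.3 to 74.7 CPM in CONT and 30.2 to 47.2 CPM in CAC. Of these, 0 of 5 tested markers were higher and 1, Pf4, was lower at p under 0.05, while Gp1bb had 0 reads in each library. Most of the summed level was Pf4, at 38.3 to 65.7 CPM in CONT and 20.8 to 42.1 CPM in CAC, and the other markers were low. Leaving out CONT replicate 1 took the median log2 fold change of the 5 tested markers from -0.72 to 0.79, with 0 higher and 1 lower. Macrophage markers came to 760 to 2128 CPM in CONT and 958 to 1715 CPM in CAC, with 1 of 10 higher and 1 lower. The low end of the CONT range was replicate 1, and the other CONT libraries, at 2104 and 2128 CPM, lay above each CAC library. With that replicate left out 1 macrophage marker was higher and 4 were lower, Adgre1, Csf1r, Lyz2 and C1qa. The part of either cell type in the Tgfb1 difference was not tested.

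Latent TGF-beta binding proteins, a family that includes tethers of the latent ligand in the matrix, did not separate the groups. Ltbp4, the most abundant of them at a mean of 48.7 FPKM over the 6 libraries, was at 329, 420 and 570 CPM in CONT and at 537, 308 and 168 CPM in CAC. CAC replicate 1 lay near the highest CONT library, and CAC replicates 2 and 3 lay below the lowest. Ltbp3 spanned the same kind of range (235 to 307 CPM in CONT, 124 to 286 CPM in CAC). Ltbp1 and Ltbp2 had log2 fold changes of 0.13 ± 0.27 and 0.14 ± 0.63 (SE), and both turned negative without CONT replicate 1 (-0.04 and -0.20).

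Of the TGF-beta receptors, Tgfbr2 and Tgfbr3 lay higher in CAC. Tgfbr2 (chromosome 9, 116084293 to 116175360, minus strand), the type II receptor that binds TGF-beta first, was at 70, 202 and 224 CPM in CONT and at 286, 329 and 349 CPM in CAC. The CAC libraries lay above the CONT libraries, and CONT replicate 1 was far below the other CONT libraries. The level was 1.94-fold higher (log2 fold change 0.96 ± 0.43 SE, edgeR adjusted p = 0.405) and missed the unadjusted threshold. Without CONT replicate 1 the difference was smaller and less variable, with a log2 fold change of 0.61, an unadjusted p under 0.05 by edgeR and an adjusted p of 0.00368 by DESeq2. Tgfbr3 (chromosome 5, 107106570 to 107289629, minus strand), the co-receptor betaglycan, was at 130, 160 and 195 CPM in CONT and at 226, 262 and 292 CPM in CAC. Its groups did not overlap either, and the level was 1.61-fold higher (log2 fold change 0.68 ± 0.23 SE, edgeR adjusted p = 0.312). With CONT replicate 1 left out its log2 fold change was 0.56, with an adjusted p of 0.0487 by DESeq2.

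Tgfbr1, the type I receptor, averaged 39.1 ± 11.5 CPM in CONT and 49.7 ± 8.2 CPM in CAC (SD, n = 3 each), with overlap, and its log2 fold change of 0.35 was 0.14 without CONT replicate 1. Eng, the endothelial co-receptor endoglin and the most abundant of the 44 genes at 50.1 FPKM, was at 332, 180 and 226 CPM in CONT and at 394, 182 and 184 CPM in CAC. Replicate 1 of each group was its highest library, and the fold change was 1.03 (log2 0.04 ± 0.40 SE). Endothelial markers came to 1496 to 3589 CPM in CONT and 2060 to 2613 CPM in CAC, with 1 of 10 higher and 0 lower at p under 0.05. The high end of the CONT range was replicate 1, and the other CONT libraries, at 1496 and 1636 CPM, lay below each CAC library. With that replicate left out 5 endothelial markers were higher and 0 lower, and their part in the receptors' differences was not tested. Acvrl1, the type I receptor of endothelium, overlapped in CPM, but its share of the summed receptor FPKM was 12.8% ± 0.6 in CONT and 8.42% ± 2.38 in CAC (SD, n = 3 each; exact permutation p = 0.1, two-sided).

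Activin and inhibin subunits overlapped between the groups. Inhbb, the subunit of activin B and the most abundant of them, was at 26.6, 61.7 and 79.2 CPM in CONT and at 58.9, 30.6 and 96.6 CPM in CAC, so the ranges overlapped. Inhba, the subunit of activin A, was at 3.03, 9.33 and 9.72 CPM in CONT and at 1.81, 5.17 and 2.45 CPM in CAC. Its log2 fold change was -1.23 ± 0.61 (SE, edgeR adjusted p = 0.43), and it was -1.59 with an unadjusted p under 0.05 without CONT replicate 1. Inha, the inhibin subunit, was high in CONT replicate 2 (7.31 CPM) and CAC replicate 3 (4.91 CPM) and at 0.892 to 1.78 CPM in the others.

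Among the GDFs, Gdf10 (chromosome 14, 33923587 to 33937983, plus strand), a BMP3-related ligand, was at 66.0, 66.9 and 70.0 CPM in CONT and at 34.5, 41.3 and 12.5 CPM in CAC. The CONT libraries were close together and the CAC libraries all lay below them. The level was 2.3-fold lower in CAC (log2 fold change -1.20 ± 0.42 SE, edgeR adjusted p = 0.324). The log2 fold change was the same without CONT replicate 1, but its unadjusted p was then over 0.05. Gdf11, a ligand of activin receptors (chromosome 10, 128882295 to 128891718, minus strand), was low but did not overlap, at 4.90, 3.55 and 3.03 CPM in CONT and at 1.52, 2.54 and 2.001 CPM in CAC (edgeR adjusted p = 0.41). Gdf15, a stress-induced cytokine that acts on the brainstem receptor GFRAL, stayed under 1.2 CPM in each library and had a log2 fold change of -0.34 ± 0.46 (SE). Mstn, which encodes myostatin, had 1 read in CAC replicate 1 and 0 in the 5 other libraries, where 3 reads would have been 0.113 to 0.268 CPM. It was not detectable at this depth and was not tested.

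Each of the 4 receptors for activin, GDFs and myostatin had a positive log2 fold change. Acvr1c (chromosome 2, 58267453 to 58357895, minus strand), which encodes ALK7, a type I receptor of adipocytes that restrains lipolysis, was at 93.2, 115 and 118 CPM in CONT and at 193, 181 and 132 CPM in CAC. The lowest CAC library, replicate 3, was above the highest CONT library. The level was 1.56-fold higher (log2 fold change 0.64 ± 0.22 SE, edgeR adjusted p = 0.32), and without CONT replicate 1 the log2 fold change was 0.55. Acvr2a, a type II receptor (chromosome 2, 48814109 to 48903269, plus strand), was at 14.7, 22.9 and 25.3 CPM in CONT and at 28.1, 26.7 and 27.6 CPM in CAC (log2 fold change 0.39 ± 0.24 SE, edgeR adjusted p = 0.516). The groups did not overlap, but the log2 fold change was 0.20 without CONT replicate 1. Reads of the opposite-strand gene Orc4 amounted to 93.7% of its own. Acvr1b (0.46 ± 0.36 SE) and Acvr2b (0.29 ± 0.33 SE) overlapped between groups, and Acvr1b was at 0.16 without CONT replicate 1.

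The follistatin family was led by Fstl1 (chromosome 16, 37776873 to 37836514, plus strand), a secreted glycoprotein of mesenchymal cells. It was at 131, 199 and 222 CPM in CONT and at 125, 79.8 and 53.1 CPM in CAC. CAC replicate 1 came close to CONT replicate 1, and the remaining libraries were well separated. The level was 2.14-fold lower in CAC (log2 fold change -1.10 ± 0.37 SE, edgeR adjusted p = 0.305). Leaving out CONT replicate 1 gave -1.28 on the log2 scale, with an adjusted p of 0.0288 by DESeq2. Fst, the activin-binding follistatin, and its relative Fstl3 were at 3.44 to 10.2 CPM and 1.25 to 5.21 CPM over all libraries, with overlap. As a share of family FPKM, Fstl1 was 93.7% ± 1.7 in CONT and 86.2% ± 4.4 in CAC, and Fstl3 was 3.39% ± 1.51 and 7.09% ± 2.04 (SD, n = 3 each; exact permutation p = 0.1 for both, two-sided).

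**Figure D2:**
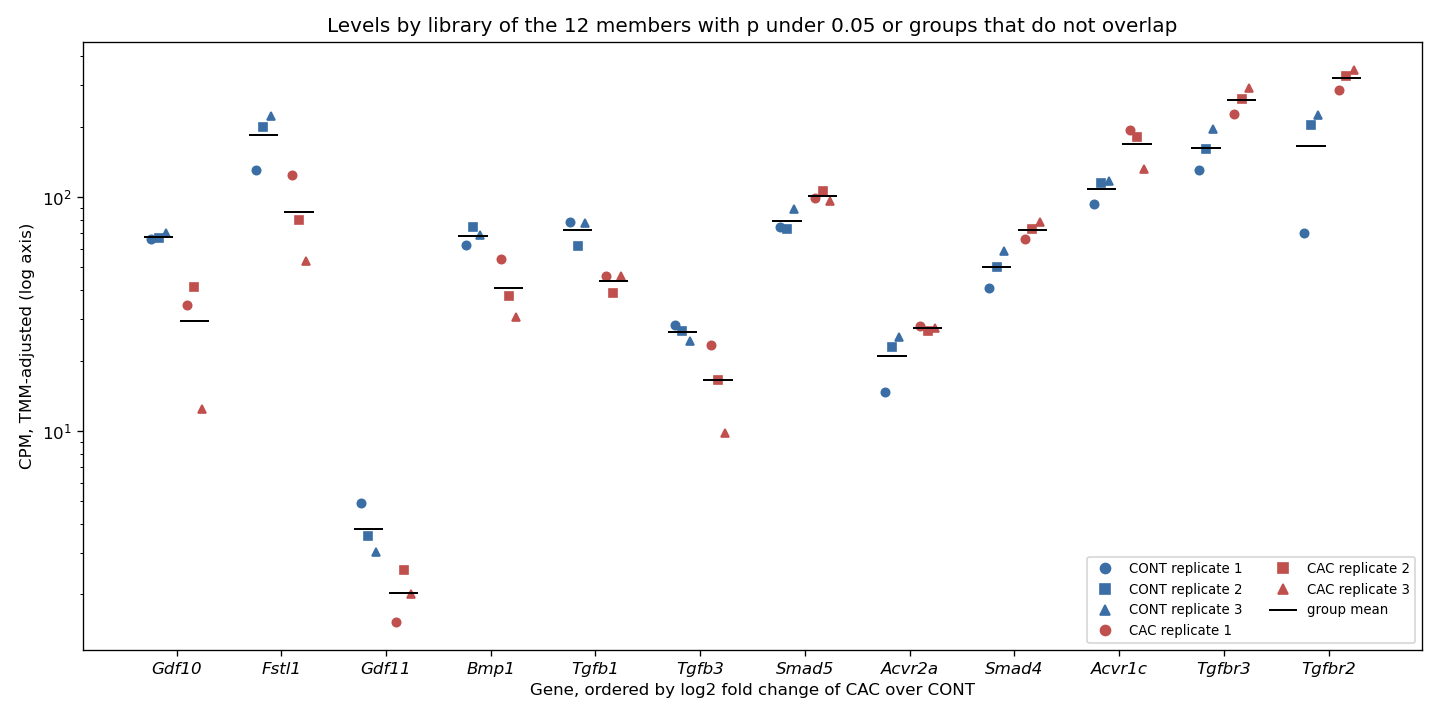
CPM on a log axis in each of the 6 libraries for the 12 genes with an unadjusted p under 0.05 or without overlap between groups, CONT in blue and CAC in red, with bars at the group means. The left 6 genes were lower and the right 6 higher in CAC, and CONT replicate 1 was the lowest library for Tgfbr2 at 70.0 CPM.

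For BMP ligands the ranges overlapped. Bmp6, a BMP of adipose and endothelial cells and the most abundant ligand of that class, was at 71.6, 54.2 and 50.4 CPM in CONT and at 71.8, 41.0 and 48.8 CPM in CAC. Replicate 1 was highest in both groups. Reads of Txndc5 on the opposite strand amounted to 261% of those of Bmp6. Bmp4, which commits progenitors to the adipocyte lineage, had means of 15.5 ± 6.7 CPM in CONT and 15.0 ± 1.7 CPM in CAC (SD, n = 3 each). Bmp2 and Bmp3 ranged from 3.21 to 9.86 CPM and from 3.39 to 22.3 CPM. Bmp7, linked to thermogenic fat, had the most negative log2 fold change of the 43 genes (-2.79 ± 1.17 SE, edgeR adjusted p = 0.378). It was at 1.07, 11.2 and 22.4 CPM in CONT and at 1.23, 3.39 and 0.415 CPM in CAC, so CONT replicate 1 lay within the CAC range. Without that library the log2 fold change was -3.31, with an unadjusted p under 0.05 by edgeR and an adjusted p of 0.00738 by DESeq2. Without CONT replicate 3, its highest library, the log2 fold change was -1.85, and it was -1.08 on log2(FPKM + 1). Epididymis markers summed to 14.8 to 11780 CPM in CONT, highest in replicate 3, and to 0.246 to 16.6 CPM in CAC, with 0 of 2 tested markers higher and 1 lower. Of that list, Gpx5 was at 0 in CONT replicate 2 and CAC replicates 1 and 2. Their part in the Bmp7 difference was not tested.

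Bmp1 (chromosome 14, 70474558 to 70520234, minus strand) encodes a protease that trims procollagens and activates latent TGF-beta complexes and is no BMP ligand. Its level was 62.5, 74.2 and 68.5 CPM in CONT and 54.1, 37.7 and 30.8 CPM in CAC, without overlap. It was 1.68-fold lower (log2 fold change -0.74 ± 0.24 SE, edgeR adjusted p = 0.303), and without CONT replicate 1 the log2 fold change was -0.79.

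Fibroblast and matrix markers were lower beside Fstl1, Gdf10 and Bmp1. Of 12 markers tested, 0 were higher and 6 lower at p under 0.05, and the list summed to 2749 to 3337 CPM in CONT and 1694 to 2502 CPM in CAC. Log2 fold changes were negative for 11 of the 12. Leaving out CONT replicate 1 gave 1 marker higher, Dcn, and 5 lower at p under 0.05. Pi16, a marker of adventitial progenitors, lay lower without overlap (32.4 to 42.6 CPM in CONT, 16.6 to 24.3 CPM in CAC), Pdgfra overlapped (log2 fold change -0.07), and Dcn, which encodes decorin, lay higher without overlap at 780.4 to 973 CPM in CONT and 1099 to 1498 CPM in CAC. None of these markers was at 0. The part of fibroblast content in the 3 differences was not tested.

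BMP receptor levels overlapped between the groups. Bmpr1a, the most abundant receptor of this class in FPKM, was at 58.7, 64.2 and 84.1 CPM in CONT and at 76.3, 82.8 and 87.5 CPM in CAC, and CONT replicate 3 lay among the CAC libraries. Bmpr2, the type II receptor, averaged 116 ± 30 CPM in CONT and 160 ± 24 CPM in CAC (SD, n = 3 each), with overlap. As a share of BMP receptor FPKM it was 26.6% ± 1.2 in CONT and 32.1% ± 4.0 in CAC, without overlap (SD, n = 3 each; exact permutation p = 0.1, two-sided). Acvr1 had a log2 fold change of -0.02 ± 0.23 (SE). Bmpr1b was at 1.07, 11.3 and 9.09 CPM in CONT and at 0.205, 3.75 and 1.36 CPM in CAC, with a log2 fold change of -2.01 ± 1.16 (SE, edgeR adjusted p = 0.48). With a library left out, the log2 fold change ran from -3.17 (without CAC replicate 2) to -1.40 (without CAC replicate 1). As for Bmp7, CONT replicate 1 lay within the CAC range.

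Of the SMADs, Smad4, the partner shared by the TGF-beta and BMP arms, was at 40.8, 50.4 and 58.8 CPM in CONT and at 66.0, 72.7 and 78.6 CPM in CAC. The groups did not overlap, and the level was 1.45-fold higher (log2 fold change 0.53 ± 0.19 SE, edgeR adjusted p = 0.335). Its log2 fold change was 0.42 without CONT replicate 1, still with an unadjusted p under 0.05. Smad5 (chromosome 13, 56703010 to 56742377, plus strand), a BMP-activated SMAD, was at 74.2, 73.1 and 88.8 CPM in CONT and at 99.2, 106 and 96.0 CPM in CAC, again without overlap (log2 fold change 0.35 ± 0.17 SE, edgeR adjusted p = 0.419). Smad1, which is activated by the same receptors, had its highest level in CONT replicate 1 (89.3 CPM, against 41.6 and 42.1 CPM in the other CONT libraries and 40.0 to 61.6 CPM in CAC). Its log2 fold change was -0.19, and 0.28 without that library.

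The TGF-beta and activin SMADs overlapped between groups, at means of 34.4 ± 2.8 and 33.7 ± 6.7 CPM for Smad2 and of 32.6 ± 4.9 and 39.5 ± 9.98 CPM for Smad3 in CONT and CAC (SD, n = 3 each). Smad6, which blocks BMP signalling, was at 18.6, 16.8 and 17.1 CPM in CONT and at 46.2, 15.6 and 18.01 CPM in CAC. Its positive log2 fold change of 0.61 ± 0.43 (SE) rested on CAC replicate 1 and was -0.01 without that library. Smad7, which blocks both arms, was also highest in CAC replicate 1 (27.1 CPM, against 16.5 to 19.6 CPM in the other libraries), and its log2 fold change of 0.21 became -0.00386 without it. Within the summed FPKM of Smad1 to Smad5, Smad4 made up 27.5% ± 4.5 in CONT and 33.8% ± 1.3 in CAC (SD, n = 3 each; exact permutation p = 0.1, two-sided).

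**Figure D3:**
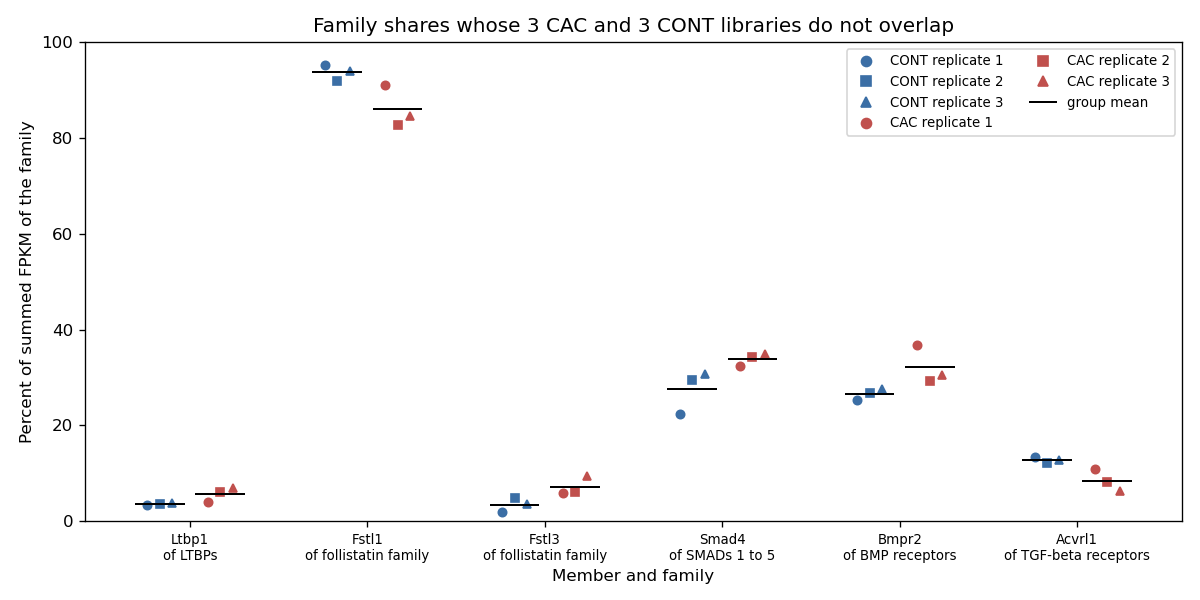
Percent of the summed FPKM of a family carried by 1 gene in each of the 6 libraries, CONT in blue and CAC in red, with bars at the group means, for the 6 of 31 shares without overlap between groups. Shares of Ltbp1, Fstl3, Smad4 and Bmpr2 lay higher in CAC and those of Fstl1 (93.7% against 86.2%) and Acvrl1 (12.8% against 8.42%) lower.

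In all, 31 shares in 8 families were compared. With 3 libraries against 3 the smallest exact permutation p is 0.1, so the design could not reach 0.05, and the 6 shares at that value had a Benjamini-Hochberg adjusted p of 0.517. The sixth was Ltbp1, at 3.51% ± 0.18 of the binding proteins in CONT and 5.68% ± 1.54 in CAC (SD, n = 3 each; exact permutation p = 0.1, two-sided). Its difference was 2.16 percentage points in FPKM and 3.42 in counts not divided by length. Shares do not depend on the library total that scales FPKM. By level, 11 of the 44 genes had a mean FPKM of at least 10, 27 lay from 1 to under 10, and 6 were under 1.

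Ctgf, a matricellular protein and a classic TGF-beta target, was at 28.6, 39.0 and 13.8 CPM in CONT and at 44.6, 37.9 and 44.5 CPM in CAC. CONT replicate 2 lay within the CAC range (log2 fold change 0.64 ± 0.37 SE, edgeR adjusted p = 0.48). Of 26 further TGF-beta and activin targets 25 were tested, and 1 was higher and 5 were lower at p under 0.05, beside 6.31% and 6.95% of all genes, with a median log2 fold change of 0.12. The higher gene was Thbs1, a matrix protein that activates latent TGF-beta, at 26.0, 38.6 and 34.1 CPM in CONT and at 205, 70.8 and 111 CPM in CAC. Its groups did not overlap, the level was 3.92-fold higher (log2 fold change 1.97 ± 0.41 SE), and the adjusted p was 0.228 by edgeR and 0.000545 by DESeq2.

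The lower targets were mainly fibrillar collagens. Col3a1 was at 539, 982 and 941 CPM in CONT and at 317, 173 and 127 CPM in CAC, 3.99-fold lower (log2 fold change -1.996 ± 0.439 SE, adjusted p 0.228 by edgeR and 0.000535 by DESeq2). Col1a1 was 4.37-fold and Col1a2 3.06-fold lower (log2 fold changes -2.13 and -1.62), both without overlap. Without CONT replicate 1 the unadjusted p of Col1a2 was over 0.05. The log2 fold changes of Col1a1 and Col1a2 were -2.88 and -2.23 without CAC replicate 1, and -1.65 and -1.19 without CAC replicate 3. Each collagen also stands in the fibroblast list above. Itgb5, an integrin subunit (log2 fold change -0.74 ± 0.29 SE), and Cyr61, a matricellular relative of Ctgf (-1.40), were lower with overlap, and Cyr61 was at -0.92 with an unadjusted p over 0.05 without CONT replicate 1. Fn1, which encodes fibronectin, averaged 373 CPM in CONT and 306 CPM in CAC, with overlap. Of 15 BMP targets 13 were tested, and 0 were higher or lower at p under 0.05 by edgeR, beside 13.3% of all genes. By DESeq2 there were 3, beside 17.1% of the genes that edgeR also tested. The smallest edgeR p values were those of Hes1, a transcriptional repressor, and Nog, the BMP antagonist noggin. Hes1 had a log2 fold change of -1.18 ± 0.50 (SE, edgeR adjusted p = 0.383). It was -0.42 without CONT replicate 1, the highest library of Hes1 at 44.5 CPM. Nog had a log2 fold change of 1.14 ± 0.53 (SE, edgeR adjusted p = 0.413). It was 0.57 without CAC replicate 3, the highest library of Nog at 10.9 CPM. The inhibitors of differentiation Id1, Id2, Id3 and Id4 had negative log2 fold changes from -0.15 to -1.07, with overlap in each.

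Of 77 other genes of the pathway 54 were tested, with 5 higher and 4 lower at p under 0.05, beside 6.31% and 6.95% of all genes, and a median log2 fold change of 0.10. The counts in the groups below are too small to set against these shares. Among further ligands, 5 of 18 were tested, and Lefty1, a secreted inhibitor of nodal, was lower at 2.68, 4.16 and 3.53 CPM in CONT and 1.23, 1.78 and 0.906 CPM in CAC. Of 17 co-receptors and activators 12 were tested, 3 higher and 1 lower. Besides Thbs1, the higher genes were Rgma, a BMP co-receptor (62.8, 55.3 and 58.5 CPM in CONT, 110, 88.1 and 83.0 CPM in CAC), and Lrrc32, the cell-surface anchor of latent TGF-beta (29.0, 32.5 and 41.7 CPM in CONT, 55.6, 41.8 and 58.2 CPM in CAC). Without CONT replicate 1 the unadjusted p of Lrrc32 was over 0.05, and its highest CONT library (41.68 CPM) lay just under its lowest CAC library (41.82 CPM). Nrros, the anchor used by macrophages and microglia, was lower at 30.6, 43.5 and 39.7 CPM in CONT and 29.7, 19.3 and 24.1 CPM in CAC. None of these 4 genes overlapped between groups, and Rgma had an adjusted p of 0.0266 by DESeq2 and 0.267 by edgeR.

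Among 22 secreted antagonists and matrix binders 17 were tested, 1 higher and 2 lower. Fbn1, the fibrillin that LTBPs bind, was at 43.3, 159 and 194 CPM in CONT and at 58.4, 39.5 and 20.2 CPM in CAC, with CONT replicate 1 inside the CAC range. Without that library its log2 fold change went from -1.75 to -2.15. Aspn, the TGF-beta-binding asporin, was 1.56-fold lower without overlap. Tsku, a secreted hepatokine and BMP antagonist, was 3.81-fold higher with overlap (4.28, 13.3 and 10.6 CPM in CONT, 7.93, 32.5 and 67.4 CPM in CAC). Its log2 fold change was 1.93, and 1.60 without CONT replicate 1, when its unadjusted p was over 0.05. Without CAC replicate 3 it was 1.11, a 2.16-fold difference. Among 20 intracellular regulators, all tested, 1 was higher and 0 lower: Ppm1a, a phosphatase of receptor SMADs, at 148, 180 and 198 CPM in CONT and 241, 247 and 295 CPM in CAC.

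Neutrophil markers lay higher in CAC, with 6 of 8 tested markers higher and 0 lower at p under 0.05 and a summed level of 5.17 to 68.4 CPM in CONT and 176 to 1287 CPM in CAC. Ly6g, Mmp8 and Ngp were at 0 in CONT replicate 1. Of B and plasma cell markers 1 of 8 was higher and 3 were lower (158 to 317 CPM in CONT, 334 to 833 CPM in CAC, most of it Xbp1). Of the remaining lists, mural cells had 0 of 8 higher and 2 lower, mesothelium 1 of 10 higher and 0 lower, skeletal muscle 2 of 7 higher and 0 lower, and T cells 0 of 8 in either direction. The part of these cells in the pathway's differences was not tested.

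Transcript GC content moved with the log2 fold changes to a small degree. Across the 43 genes Spearman's rho between them was -0.22, and -0.13 across 17068 genes, where genes of a library share its base composition and are not independent. The 6 higher genes without overlap had a GC content of 39.9% to 49.6% (median 46.6%) and the 6 lower ones 48.1% to 56.7% (median 52.5%). Offsets for GC content and transcript length, added after the data had been seen, brought rho over the 43 genes to 0.02. They also moved the share of higher genes among those with an unadjusted p under 0.05 from 47.6% to 64.1% (8.10% of 17068 genes higher and 4.53% lower). Under these offsets 6 of 6 higher and 6 of 6 lower genes kept their sign, and 3 of the higher and 2 of the lower had p under 0.05 by edgeR. Tgfb1, Bmp1 and Acvr1c no longer had an unadjusted p under 0.05 with the offsets, and Tgfbr2 and Inhba then had one. Genes picked for groups without overlap could hardly change sign when a library was left out. Without CONT replicate 1 the signs were also kept in 6 of 6 and 6 of 6, with p under 0.05 for 4 and 3. Over the 43 genes 4 were then higher and 5 lower at that level, Inhba and Bmp7 included, beside 7.30% higher and 8.28% lower over all genes. DESeq2 without that library called 2102 of 19067 genes (11.0%), among them Tgfb1, Tgfbr2, Tgfbr3, Fstl1 and Bmp7. Of the 7 pathway genes with an unadjusted p under 0.05, Tgfb1 alone kept it by edgeR with each of the 6 libraries left out in turn. Of the 13 other pathway genes and targets named above at that level, Cyr61 aside, Thbs1, Rgma and Col3a1 kept it each time. Leaving out other libraries changed the counts at an unadjusted p under 0.05, and the shares over all genes moved too. Of the pathway genes 0 were higher without CAC replicate 2 (3.55% of all genes), 1 without CAC replicate 3 (3.84%), 1 without CONT replicate 2 (4%), 2 without CAC replicate 1 (6.31%) and 5 without CONT replicate 3 (5%). On the lower side there was 1 without CONT replicate 2 (5.30%), 1 without CONT replicate 3 (4.25%), 2 without CAC replicate 3 (4.47%), 4 without CAC replicate 2 (3.69%) and 5 without CAC replicate 1 (5.37%). By DESeq2 5 pathway genes were higher (8.50% of the genes that edgeR also tested) and 6 lower (8.56%), and by voom 5 were higher (12.4%) and 9 lower (16.0%). A library left out leaves fewer values to overlap, so the share of all genes without overlap is larger whichever library it is. Shares are given here for replicate 1 of each group. Without CONT replicate 1, 6 pathway genes lay higher (19.9% of all genes) and 10 lower (20.1%) without overlap, and without CAC replicate 1, 10 lay higher (19.3%) and 9 lower (16.6%).

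**Figure D4:**
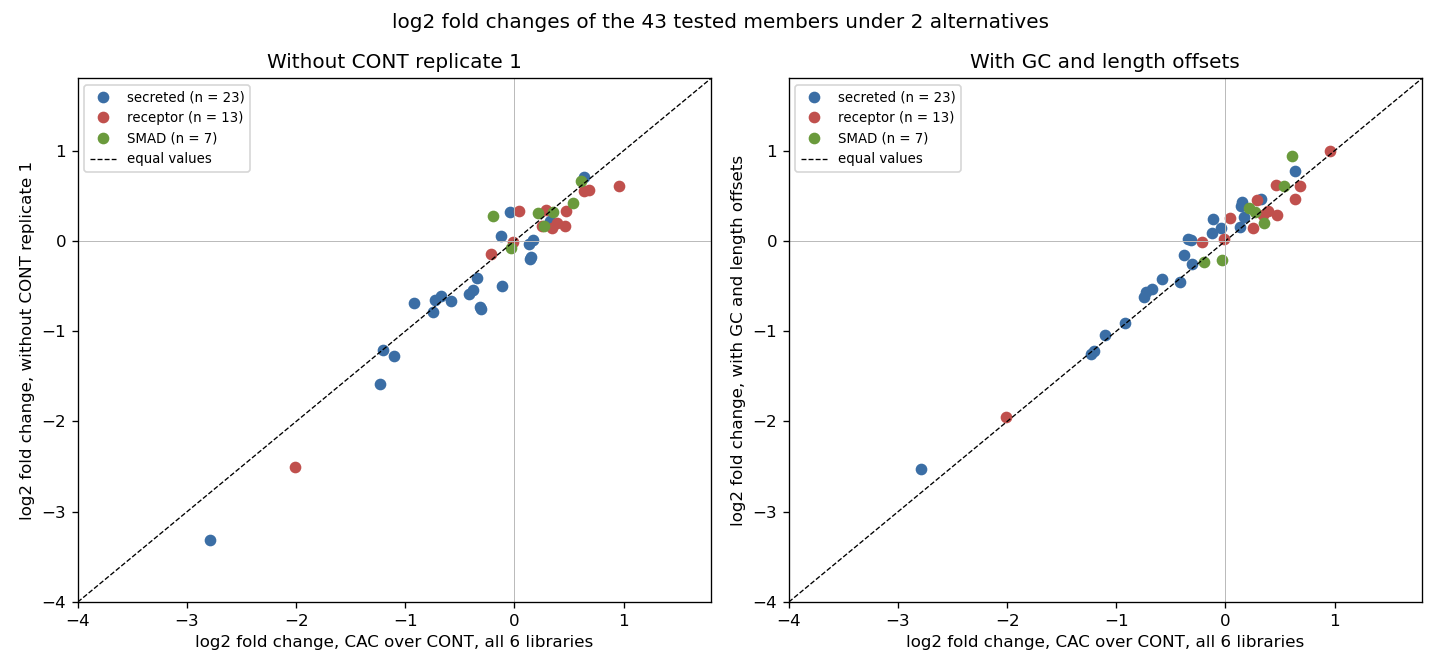
Log2 fold changes of the 43 tested genes with all 6 libraries (horizontal axes) against those without CONT replicate 1 (left) and with GC and length offsets (right), colored by secreted factor, receptor or SMAD; the dashed line marks equal values. Bmp7 at the far left went from -2.79 to -3.31 and to -2.52, and Tgfbr2 at the far right from 0.96 to 0.61 and to 0.99.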

How the data were processed

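Poly(A) mRNA of eWAT from 3 CAC and 3 CONT mice was sequenced on an Illumina instrument. The authors cleaned the reads, mapped them onto GRCm38 using HISAT2 2.0.5 and counted them per gene with featureCounts 1.5.0-p3, versions taken from the submitters' processing notes. The deposited counts are whole numbers without normalization. The FPKM values deposited beside them divide counts by gene length and a library total, and were used for family sums, shares and levels.

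Groups and replicates followed the sample labels. Deviations from the group means correlated at 0.268, -0.227 and -0.264 between same-numbered libraries, positive for 1 of the 3 pairs, so replicate numbers were not treated as pairs. Counts were tested in R 4.3.3 with edgeR 4.0.16 (TMM, filterByExpr, robust quasi-likelihood test, condition as the term, Benjamini-Hochberg adjustment over all genes tested). The common dispersion was 0.265. Alternatives were RLE or upper-quartile factors, no filter, at least 10 counts in every library, no robust estimation, the replicate block, DESeq2 1.42.0, voom with sample quality weights and limma 3.58.1 on log2(FPKM + 1) or log2(FPKM + 0.1) (FPKM of 0.5 or more in 3 libraries), where a fold change understates that of low genes. Each library was also left out in turn, from edgeR and from DESeq2. Offsets for GC content and length (natural splines with 5 degrees of freedom, GENCODE M21 transcripts) were added after seeing the data. The procedure was tested on simulated data. Family shares were compared with exact permutation tests, and recomputed from counts not divided by length.

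Of the 44 genes, values are given by library for those with an unadjusted p under 0.05 or without overlap and for the most abundant of each role. From each pathway list at most 5 genes of the smallest p were named, or 2 where none passed. Lep, Dcn, Pdgfra, Pf4, Pi16, Cyr61, Fn1, Xbp1, Adgre1, Csf1r, Lyz2, C1qa and the Id genes were named after their values were seen. Members and lists were chosen with earlier results of these data known.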

Additional observations from a re-analysis of the deposited data

How the results depend on the processing

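Calls depended on the test. Over all genes, 0 passed an adjusted p of 0.05 by edgeR under the other factors, filters, offsets and left-out libraries, 1 with the replicate block, 965 by DESeq2 (2102, 623 and 888 without CONT replicates 1, 2 and 3, and 1506, 696 and 615 without CAC replicates 1, 2 and 3), 956 by voom and 8 and 11 on log2(FPKM + 1) and log2(FPKM + 0.1). Of the pathway genes 1 passed by DESeq2 (1 to 5 with a library left out), 3 by voom and 0 elsewhere. The block and pairing were a shared number only, and with the block 0 of the 44 genes passed an adjusted p of 0.05. At an unadjusted p under 0.05 there were 3 higher and 4 lower as before. With them were 5 TGF-beta and activin targets and 8 other pathway genes, beside 11.5% of all genes at that level. The cause of these differences was not tested.

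At an unadjusted p under 0.05, 5 pathway genes were higher by DESeq2 (8.50% of 17025 genes that edgeR also tested) and 5 by voom (12.4% of 17296), with 0 to 5 when a library was left out, and 6 were lower by DESeq2 (8.56%) and 9 by voom (16.0%), with 1 to 5 when a library was left out. With a library left out, 6 to 10 lay higher without overlap (10 without CAC replicate 1, beside 19.3% of all genes). On the lower side 6 to 10 did so (10 without CONT replicate 1, beside 20.1%), and without a filter on low counts there were 7 higher and 5 lower. The median log2 fold change of the pathway genes was 0.0852 without a filter, 0.147 with GC and length offsets (all genes 0.03) and -0.0156 to 0.183 with a library left out. Counts for TGF-beta and activin targets were 3 to 7 with a library left out (7.24% to 15.6% of all genes). For BMP targets they were 1 at 10 counts in every library (15.4% of all genes), by voom (28.4%) and with offsets (12.6%). They were 3 by DESeq2 (17.1% of the genes that edgeR also tested) and 0 to 2 with a library left out (7.24% to 15.6%). Other pathway genes gave 15 by DESeq2 (17.1% of the genes that edgeR also tested), 17 by voom (28.4%) and 2 to 14 with a library left out.

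Some directions reversed. The log2 fold change was -0.0276 for Ltbp1, -0.68 for Ltbp2, -0.61 for Inhbb, 0.36 for Bmp4, 0.0298 for Acvr1 and 0.22 for Smad1 by voom. With the replicate block it was -0.0655 for Ltbp2, -0.011 for Eng, 0.00739 for Inha, 0.0516 for Fstl3, 0.0553 for Bmp4 and 0.0128 for Acvr1. With offsets it was 0.0135 for Inha, 0.0198 for Gdf15, 0.25 for Fstl3, 0.14 for Bmp4, 0.0871 for Bmp6 and 0.0225 for Acvr1. Without a filter it was 0.039 for Bmp4, 0.056 for Acvr1 and 0.0503 for Smad2, and by DESeq2 0.00412 for Acvr1. On log2(FPKM + 1) it was 0.00426 for Fstl3, 0.0504 for Bmp4 and 0.0239 for Acvr1, and on log2(FPKM + 0.1) 0.00472 for Inha, 0.0967 for Fstl3, 0.0738 for Bmp4 and 0.0336 for Acvr1. With a library left out, log2 fold changes that crossed 0 ran from -0.0365 to 0.361 for Ltbp1, -0.64 to 0.46 for Ltbp2, -0.39 to 0.33 for Eng, -0.59 to 0.02 for Acvrl1, -1.20 to 1.21 for Inha, -0.31 to 0.50 for Inhbb, -0.47 to 0.45 for Fst, -0.50 to 0.27 for Fstl3, -0.84 to 0.25 for Bmp3, -0.31 to 0.32 for Bmp4, -0.348 to 0.0577 for Bmp6, -0.18 to 0.20 for Acvr1, -0.37 to 0.28 for Smad1, -0.13 to 0.12 for Smad2, -0.0122 to 0.893 for Smad6 and -0.00386 to 0.35 for Smad7. The 12 genes with p under 0.05 or without overlap kept their direction under the 17 alternatives run for each. Groups of all 12 did not overlap, so leaving out a library could hardly reverse them, and this is no test of their direction.

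With 3 mice a group and a spread between mice far above counting error, a pathway gene without a call is not shown to be equal between groups. Genes near 1 CPM, such as Gdf15, rest on 9 to 27 reads a library.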
